A study of Mus musculus with 19 samples.

Results

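Kupffer cell marker genes are a set of 10 named genes that mark the resident macrophages of mouse liver: Clec4f, Cd5l, Marco, Vsig4, Timd4, Cd68, Csf1r, C1qa, C1qb and C1qc. They were chosen by name, and their array probes were found through the RefSeq accession that the array design gives each probe. Accessions matched 9 of the 10 genes, out of 20018 genes named on the array. Those 9 genes had 11 probes, 3 of them for Csf1r, and all 11 were kept by the filter on dim probes. No probe was matched to Cd68 through the accession table, and it was not analysed here.

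Kupffer cells sit inside the liver sinusoids, where they take up particles, lipids, bacteria and dying cells from portal blood. The resident population is seeded before birth and renews itself, and it depends on signalling through Csf1r, the receptor for the growth factors CSF1 and IL34. When resident cells are lost, monocytes enter the liver, become macrophages and acquire Clec4f early and Timd4 late. The cells are also known as a major hepatic source of C1q, the recognition protein of the classical complement pathway.

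The study exposed male mice of the transgenic strain 40.6, aged 10 weeks, to dibenz[a,h]anthracene (DB[a,h]A), a polycyclic aromatic hydrocarbon that activates the aryl hydrocarbon receptor and damages DNA, and took liver RNA 3 days later. The groups were control (0 mg/kg, n = 5), 6.25 mg/kg (n = 5), 12.5 mg/kg (n = 4) and 25 mg/kg (n = 5), with 1 array for each animal, and every animal of all 4 groups, controls included, was of the same transgenic strain. Each Agilent 2-colour array carried liver RNA labelled with Cy5 and a universal reference RNA of 11 mouse cell lines labelled with Cy3, so each value is the log2 ratio of liver over reference on 1 array. The tissue was a piece of whole liver, in which macrophages are a minority of cells, so fewer Kupffer cells and less RNA per Kupffer cell cannot be told apart.

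Between 35.5% and 56.7% of the spots of an array were well above background in the liver channel, and between 55.8% and 75.4% in the reference channel. Arrays of the same group correlated at 0.948 to 0.987 over all kept probes, and no pair held identical values. The 19 arrays lay on 3 slides, each of which held animals of all 4 groups, but not in equal numbers. Slide 1 held 2 control arrays and 1 of each dose, and slide 2 held 2 of each group. Slide 3 held 1 control array, 1 at 12.5 mg/kg and 2 each at 6.25 and 25 mg/kg. Estimates without a block therefore compare groups spread unevenly over the slides. At 25 mg/kg against control, 17 of 29415 probes passed (adjusted p under 0.05, limma, Benjamini-Hochberg), and 240 passed with slide as a block.

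The markers were first checked for signal in the liver channel. It was well above background on 19 of 19 arrays for 10 of the 11 probes and on 16 of 19 arrays for Timd4. Ratios were highest for Cd5l, Clec4f and Vsig4, whose medians over the 19 arrays were 6.04, 5.94 and 5.40 on the log2 scale, but each ratio depends on its own reference signal, so these medians do not rank the genes. The reference signal was well above background on 0 of 19 arrays for Timd4, on 13 for Vsig4 and on 17 for Cd5l, and on all 19 for the other 6 genes. The ratio of Timd4 is therefore measured against a dim denominator on every array.

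Promoter sequences are shown for 4 of the markers, namely 2 chains of C1q, which lie side by side on chromosome 4 and whose values across arrays are compared, Marco, the marker with the widest scatter between animals, and Clec4f, whose ratios differed most between slides. Each is 250 bases before to 50 bases after the start of the gene, read 5′ to 3′ from RefSeq, build GRCm38.p6. Capitals mark the core motif of PU.1, the transcription factor of the myeloid lineage, searched as GAGGAA on both strands (TTCCTC on the other). C1qb lies at chr4:136886151-136886450, C1qc at chr4:136892865-136893164, Marco at chr1:120504975-120505274 and Clec4f at chr6:83656067-83656366, all on the minus strand.
C1qb: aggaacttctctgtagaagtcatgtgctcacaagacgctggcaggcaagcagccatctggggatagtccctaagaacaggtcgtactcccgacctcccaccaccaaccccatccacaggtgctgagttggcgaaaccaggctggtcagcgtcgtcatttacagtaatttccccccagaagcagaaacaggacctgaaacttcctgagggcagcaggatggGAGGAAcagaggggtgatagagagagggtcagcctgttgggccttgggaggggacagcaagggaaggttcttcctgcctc
C1qc: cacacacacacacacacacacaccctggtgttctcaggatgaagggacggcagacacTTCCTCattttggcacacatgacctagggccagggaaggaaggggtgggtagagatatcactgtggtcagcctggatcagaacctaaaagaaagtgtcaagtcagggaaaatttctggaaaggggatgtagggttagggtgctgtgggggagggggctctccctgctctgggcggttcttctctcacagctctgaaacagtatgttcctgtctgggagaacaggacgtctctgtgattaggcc
Marco: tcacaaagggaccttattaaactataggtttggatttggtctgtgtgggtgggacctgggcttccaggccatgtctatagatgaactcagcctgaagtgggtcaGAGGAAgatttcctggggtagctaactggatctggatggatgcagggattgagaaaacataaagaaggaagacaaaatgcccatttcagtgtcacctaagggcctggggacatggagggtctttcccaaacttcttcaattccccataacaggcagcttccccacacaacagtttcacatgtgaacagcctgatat
Clec4f: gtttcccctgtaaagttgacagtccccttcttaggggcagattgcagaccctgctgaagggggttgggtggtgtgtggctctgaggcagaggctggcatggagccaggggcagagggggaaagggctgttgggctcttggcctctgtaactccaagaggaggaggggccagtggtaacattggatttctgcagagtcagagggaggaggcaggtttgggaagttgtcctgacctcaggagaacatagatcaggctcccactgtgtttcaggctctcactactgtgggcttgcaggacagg
The promoter windows of C1qa and Csf1r were not read, so the counts that follow do not cover every marker. Of the 7 markers whose promoter window was read here, 5 held the PU.1 core: Cd5l, Marco, Vsig4, C1qb and C1qc. Its first base stood at -30 in C1qb, -193 in C1qc, -146 in Marco and -66 in Cd5l, counted from the gene start, and at -155 and -53 in Vsig4. The same letters stood in 28.3% of the 32851 promoter windows of the table. The AP-1 motif TGANTCA, which is its own reverse complement, was in 0 of the 7 windows and in 7.8% of all windows. These are matches of letters in a window of 300 bases and were not tested as binding sites.

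No Kupffer cell marker passed the test at any dose, with or without slide as a block. At 25 mg/kg against control, 0 of the 9 genes passed, beside 0.0578% of all probes tested (0.816% with slide as a block). At 12.5 mg/kg 0 of 9 passed, beside 0% of probes (0.0068% with the block), and at 6.25 mg/kg 0 of 9 passed, beside 0% with and without the block. The test of any dose called 0 of the 9 genes, beside 0.0102% of probes (0.0748% with the block), and the linear trend on dose called 0 of 9, beside 0.0204% (0.241% with the block). At an unadjusted p under 0.05, 1 of the 11 probes, that of C1qb, was called at 25 mg/kg in limma, beside 7.37% of all probes, and 0 of 11 with slide as a block, beside 14.6%. At the same limit 0 of the 11 were called at 12.5 mg/kg, beside 4.21% (9.51% with the block), and 0 at 6.25 mg/kg, beside 5.57% (11.7% with the block), with and without the block. The 3 comparisons share the 5 control animals. The intervals were wide: at 25 mg/kg the 95% interval of the log2 change ran from -1.12 to 0.64 for Clec4f and from -0.65 to 0.46 for C1qc. With slide as a block that of Clec4f ran from -0.47 to 0.40 and that of C1qc from -0.29 to 0.31.

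**Figure D1:**
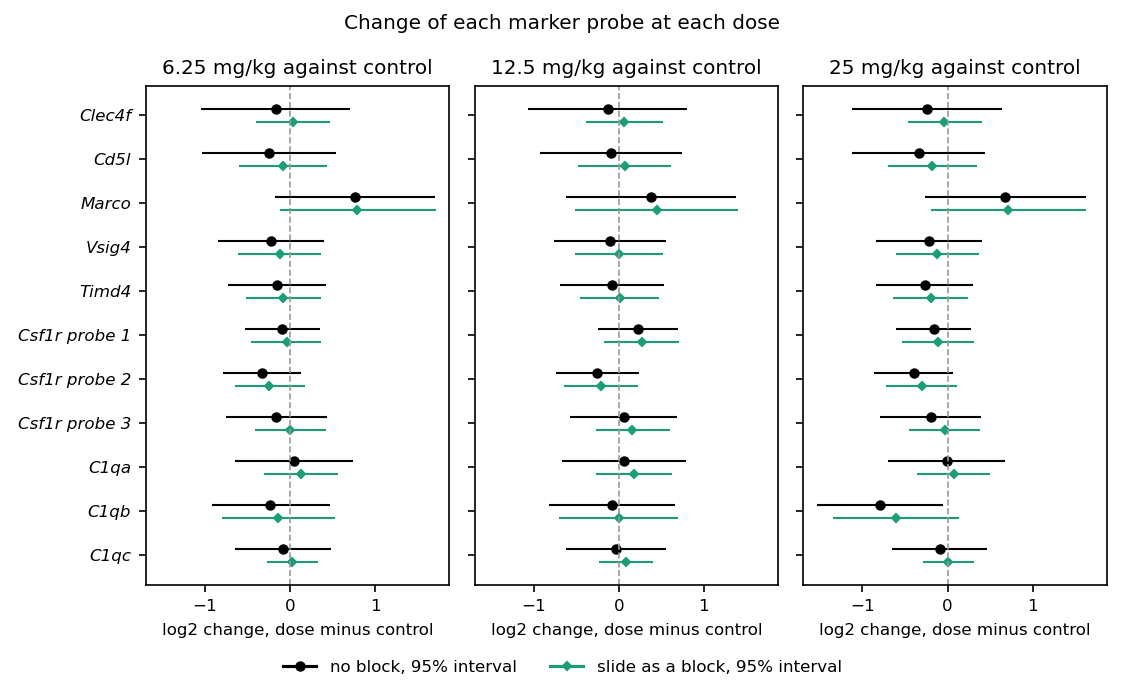
Log2 change of each marker probe at 6.25, 12.5 and 25 mg/kg against control (x axis, log2 units, dose minus control), without a block and with slide as a block; points are limma estimates over the 19 arrays and lines 95% intervals. Every interval crosses 0 except that of C1qb at 25 mg/kg without the block, which runs from -1.53 to -0.05.

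The lectins and receptors that identify the resident cell came first. Clec4f, a C-type lectin that in mouse liver is made by Kupffer cells, had log2 ratios of 5.72, 5.74, 5.40, 7.59 and 6.45 in control livers and of 5.84, 5.68, 5.96, 5.68 and 6.94 at 6.25 mg/kg. At 12.5 mg/kg they were 6.19, 5.94, 5.18 and 6.89, and at 25 mg/kg 6.23, 6.10, 5.26, 5.13 and 6.98. The 4 groups overlapped throughout. The 5 highest of the 19 values were the 5 arrays of slide 1, between 6.45 and 7.59, while the 8 arrays of slide 2 lay between 5.13 and 5.96 and the 6 arrays of slide 3 between 5.68 and 6.23. On slide 1 the mean normalised log2 reference signal of the probe was 5.60, against 6.46 on slide 2 and 6.22 on slide 3. Before normalisation, with background subtracted, the reference signal was 42.5 to 132 on slide 1, 42 to 96 on slide 2 and 31 to 45 on slide 3. The mean normalised log2 liver signal was 12.57 on slide 1, 12.00 on slide 2 and 12.18 on slide 3. Before normalisation the liver signal was 4630 to 10613 on slide 1, 1232 to 2687 on slide 2 and 2641 to 4690 on slide 3. The log2 change of Clec4f at 25 mg/kg was -0.24 (SE 0.42), with means of 5.94 ± 0.76 at 25 mg/kg and 6.18 ± 0.88 in control livers (SD, n = 5 each), and -0.04 (SE 0.21) with slide as a block.

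Timd4, a receptor for phosphatidylserine on dying cells that marks long-resident Kupffer cells, had log2 ratios of 1.21, 1.14, 0.82, 2.52 and 1.16 in control livers and of 1.20, 1.29, 1.35, 0.97 and 1.27 at 6.25 mg/kg. They were 1.52, 1.03, 0.98 and 1.64 at 12.5 mg/kg and 1.22, 1.19, 0.30, 0.99 and 1.79 at 25 mg/kg. One control array, replicate 4, was highest of all, and the groups overlapped. The log2 change at 25 mg/kg was -0.27 (95% interval -0.84 to 0.30). In the liver channel alone, whose normalisation still used both channels, the log2 change was -0.07 at 25 mg/kg, -0.05 at 12.5 mg/kg and -0.03 at 6.25 mg/kg.

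Vsig4, the receptor that captures complement-coated bacteria on Kupffer cells, ranged from 5.05 to 6.91 in control livers, 5.03 to 5.96 at 6.25 mg/kg, 5.29 to 5.97 at 12.5 mg/kg and 4.75 to 5.89 at 25 mg/kg. Its log2 change at 25 mg/kg was -0.22 (95% interval -0.84 to 0.40). Cd5l, a secreted protein of tissue macrophages that binds lipids and circulates with IgM, ranged from 5.83 to 7.99 in control livers, 5.86 to 6.56 at 6.25 mg/kg, 5.47 to 7.22 at 12.5 mg/kg and 5.31 to 6.75 at 25 mg/kg. Its log2 change at 25 mg/kg was -0.34 (95% interval -1.12 to 0.44). For both genes the groups overlapped, and the top value was again control replicate 4.

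**Figure D2:**
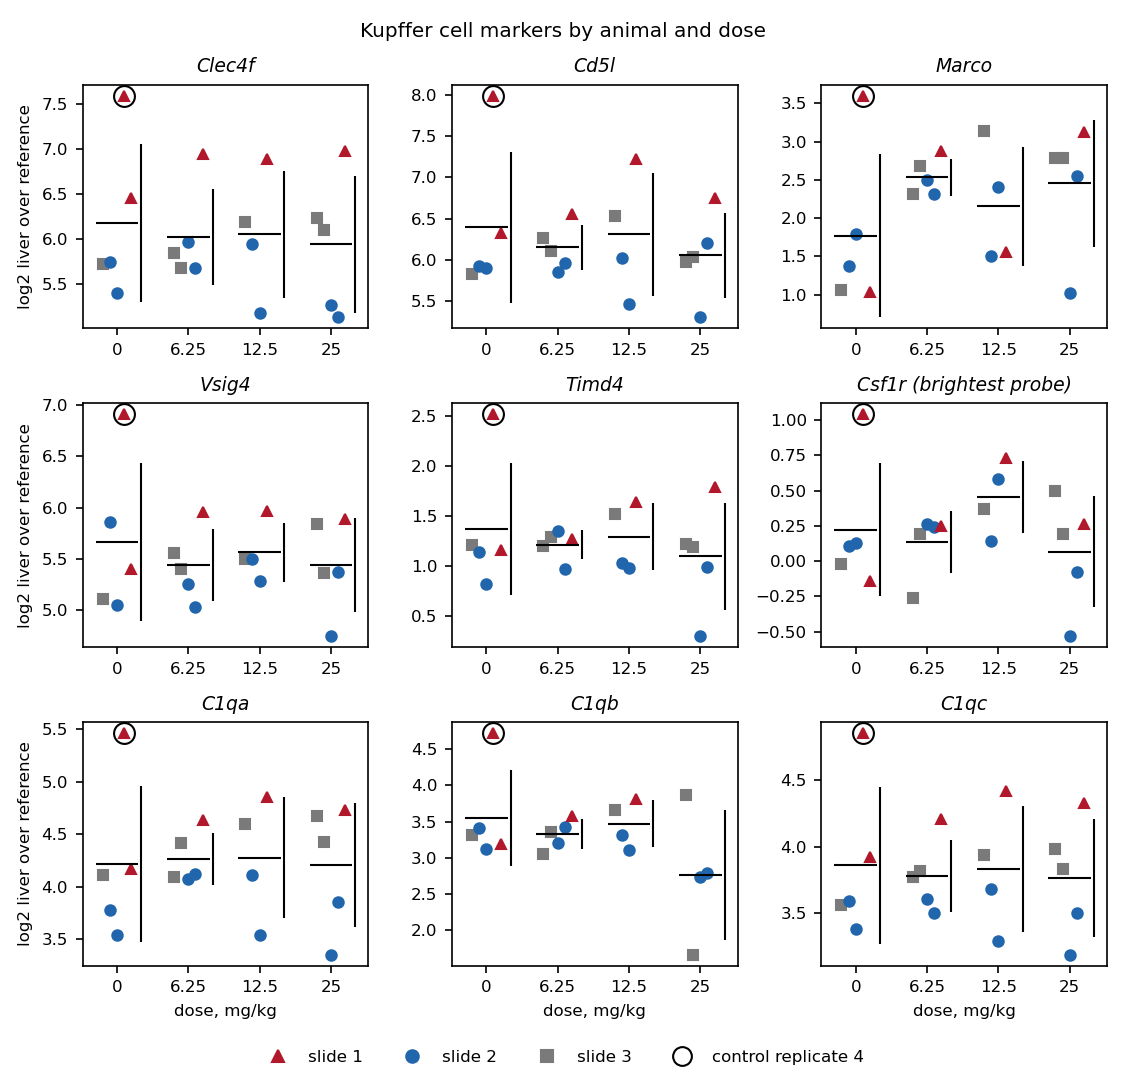
Log2 ratio of liver over reference (y axis) for the 9 markers by dose in mg/kg (x axis); each point is 1 animal, its colour and shape give the slide, horizontal lines are group means and vertical lines 1 SD. The circled point, control replicate 4, is the top point in every panel, and slide 1 stands high for Clec4f.

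Marco, a scavenger receptor that binds bacteria and particles, was the marker with the widest scatter, and its mean was above that of control at every dose. Its log2 ratios were 1.06, 1.37, 1.79, 3.60 and 1.04 in control livers and 2.31, 2.68, 2.50, 2.31 and 2.87 at 6.25 mg/kg. They were 3.14, 1.51, 2.40 and 1.56 at 12.5 mg/kg and 2.79, 2.78, 1.02, 2.55 and 3.12 at 25 mg/kg. In 4 of 5 control livers the value was at most 1.79, while all 5 values at 6.25 mg/kg and 4 of 5 at 25 mg/kg were at least 2.31, and control replicate 4 exceeded every dosed animal. The log2 change was 0.76 (95% interval -0.18 to 1.70, adjusted p = 0.921) at 6.25 mg/kg, 0.38 (-0.62 to 1.38, adjusted p = 0.999) at 12.5 mg/kg and 0.68 (-0.26 to 1.62, adjusted p = 0.816) at 25 mg/kg in limma. With slide as a block it was 0.79, 0.45 and 0.71, with adjusted p = 0.495, 0.808 and 0.480.

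The size of the change of Marco depended on that control animal, while its sign did not. Without control replicate 4 the log2 change was 1.22 (95% interval 0.45 to 1.99) at 6.25 mg/kg, 0.84 (0.02 to 1.65) at 12.5 mg/kg and 1.14 (0.37 to 1.91) at 25 mg/kg. The unadjusted limma p was 0.00378, 0.0441 and 0.00608 at these doses, and none passed after adjustment over all probes (adjusted p = 0.511 at 25 mg/kg, and 0.192 with slide as a block as well). Control replicate 4 was singled out for its high values, so leaving it out must raise each change. These intervals and p describe that dependence and are not a test of dose. Within slides, the difference between 25 mg/kg and control was 0.80 on slide 1, 0.21 on slide 2 and 1.72 on slide 3, and that between 6.25 mg/kg and control was 0.55, 0.83 and 1.43. At 12.5 mg/kg it was -0.76 on slide 1, 0.37 on slide 2 and 2.07 on slide 3, so the sign differed between slides. The normalised log2 reference signal of Marco lay between 6.39 and 6.91 on all arrays. Before normalisation, with background subtracted, it was 133 to 206.5 on slide 1 and 46 to 66 on slides 2 and 3. The log2 change in the liver channel alone was 0.62 at 6.25 mg/kg, 0.35 at 12.5 mg/kg and 0.62 at 25 mg/kg.

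Csf1r, the growth factor receptor on which macrophages depend, was read by 3 probes. The brightest, probe 1, had log2 ratios of -0.02, 0.11, 0.13, 1.04 and -0.14 in control livers and of -0.26, 0.19, 0.26, 0.24 and 0.25 at 6.25 mg/kg. They were 0.37, 0.14, 0.58 and 0.73 at 12.5 mg/kg and 0.50, 0.19, -0.53, -0.08 and 0.26 at 25 mg/kg, so the groups overlapped. The probes differed in sign at 12.5 mg/kg, where the log2 change was 0.23 for probe 1, -0.25 for probe 2 and 0.06 for probe 3. At 25 mg/kg it was -0.16, -0.40 and -0.20, and at 6.25 mg/kg -0.09, -0.33 and -0.16, none of which passed. Probe 2 also ranked the control animals differently, with replicate 3, at 1.96, above replicate 4.

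The 3 chains of C1q assemble into 1 protein, and their genes did not give the same value at 25 mg/kg. C1qa had a log2 change of -0.01 (95% interval -0.70 to 0.68) and C1qc of -0.09 (-0.65 to 0.46), while C1qb had -0.79 (-1.53 to -0.05, unadjusted p = 0.0369, adjusted p = 0.627, limma). With slide as a block these were 0.07, 0.01 and -0.60 (adjusted p = 0.463 for C1qb). At 12.5 and 6.25 mg/kg all 3 chains lay between -0.23 and 0.06. The difference between the chains was not tested.

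C1qc, measured by 10 replicate spots, had log2 ratios of 3.56, 3.59, 3.38, 4.85 and 3.92 in control livers and of 3.77, 3.82, 3.61, 3.50 and 4.21 at 6.25 mg/kg. They were 3.94, 3.68, 3.29 and 4.42 at 12.5 mg/kg and 3.98, 3.83, 3.19, 3.50 and 4.33 at 25 mg/kg, and the groups overlapped. C1qa ranged from 3.54 to 5.46 in control livers, 4.07 to 4.63 at 6.25 mg/kg, 3.54 to 4.85 at 12.5 mg/kg and 3.35 to 4.73 at 25 mg/kg, again with overlap.

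C1qb had log2 ratios of 3.32, 3.41, 3.12, 4.72 and 3.19 in control livers and of 3.05, 3.36, 3.20, 3.43 and 3.58 at 6.25 mg/kg. They were 3.66, 3.31, 3.11 and 3.81 at 12.5 mg/kg and 3.86, 1.66, 2.73 and 2.79 at 25 mg/kg. At 25 mg/kg 3 of the 4 values were below every control and 1 was above 4 of the 5 controls. The C1qb spot on 25 mg/kg replicate 5 was marked as an outlier by the scanner software, so the fit dropped it and the group had 4 values. The value of 1.66 belonged to 25 mg/kg replicate 2, where the normalised log2 reference signal of the C1qb spot was 8.94, against 6.32 to 6.87 on the other 17 arrays measured. The liver signal there was 10.60, the third highest of 18. The log2 change of C1qb at 25 mg/kg was -0.42 without that array and -0.50 without control replicate 4, and it was -0.35 in the liver channel alone (adjusted p = 0.821, limma).

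**Figure D3:**
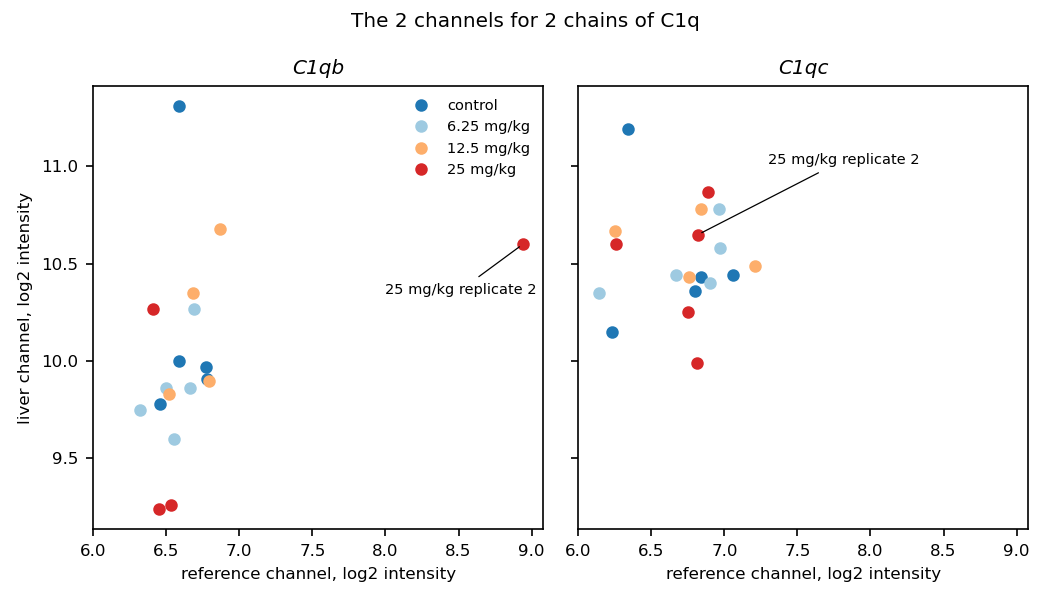
Normalised log2 liver signal (y axis) against normalised log2 reference signal (x axis) of the C1qb and C1qc probes, each point 1 array coloured by dose. The C1qb reference signal of 25 mg/kg replicate 2 stands at 8.94, with all other arrays between 6.32 and 6.87, and the same array is unremarkable for C1qc.

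The markers scattered more between animals of a group than most probes did. Their within-group SD was 0.36 to 0.79 on the log2 scale, against a median of 0.23 over all kept probes, and between 80.1% (Csf1r probe 1) and 98.7% (Marco) of probes had a smaller SD. With slide as a block the SD was 0.24 to 0.78, against a median of 0.16. For C1qc, the 10 spots of an array differed by an SD of 0.06 to 0.28, median 0.10, while the control animals differed by an SD of 0.59. Without control replicate 4 the control SD was 0.22. Each animal's value is a mean over its spots, so the SD between animals and the SD of single spots are unlike measures. The controls also lay on 3 slides, whose C1qc means over all doses were 4.35, 3.47 and 3.82.

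One control animal, replicate 4 on slide 1, stood apart from the rest. It was the highest of all 19 arrays for 10 of the 11 marker probes in the ratio and for 10 of 11 in the liver channel alone. Over all kept probes with no missing value, that array was the highest for 10.9% in the ratio and 10.1% in the liver channel; C1qb, missing on 1 array, is counted among the 11. It exceeded the mean of the other 4 controls by 2.29 for Marco, 1.99 for Cd5l, 1.76 for Clec4f and 0.44 for Csf1r probe 2, the lowest of the 11. Control replicate 5, which shared its slide, was below that slide's mean for 9 of 9 genes. Control replicate 4 exceeded control replicate 5 by 2.56 for Marco, 1.66 for Cd5l and 0.93 for C1qc.

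Genes of other cell types were counted in the same array. Control replicate 4 was the highest of the 19 arrays for 9 of 17 other Kupffer cell genes, 5 of 15 lysosomal genes of macrophages, 6 of 23 genes shared by myeloid cells, 6 of 17 genes of sinusoidal endothelium and 3 of 11 hepatocyte genes. It was the highest for 1 of 13 genes of monocytes and recruited macrophages, 0 of 3 neutrophil genes and 0 of 4 erythroid genes. Counts were 0 of 13 for scavenger and efferocytosis genes, 1 of 13 for complement C1 partners and receptors, and 1 of 10 for macrophage activation. They were 2 of 14 for the CSF1 axis, 2 of 15 for stellate cells and fibroblasts, 2 of 12 for lymphocytes, 0 of 4 for cholangiocytes and 1 of 7 for dendritic cells. The share over all kept probes with no missing value was 10.9%. Over genes measured on all 19 arrays, the mean log2 ratio of 17 sinusoidal genes was 3.46 in control replicate 4, against 3.35 to 3.51 on the other arrays of slide 1. That of 11 hepatocyte genes was 8.38, against 8.29 to 8.40, whereas that of 8 marker genes, which leaves out C1qb, was 5.00, against 3.54 to 4.23. It was also above those arrays for 17 other Kupffer cell genes (1.78, against 1.03 to 1.46). The same held for 15 lysosomal genes (0.16, against -0.30 to -0.08) and 23 shared myeloid genes (-0.33, against -1.03 to -0.46). It lay within them for 13 monocyte genes (-2.77, against -3.05 to -2.72) and 10 activation genes (-0.86, against -1.20 to -0.61). The part of these lists in the high marker values was not tested.

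Other arrays moved as a set too. After the mean of each slide was taken off, all 9 genes were below 0 in 25 mg/kg replicate 3 and in control replicate 5, with mean deviations of -0.51 and -0.66, and all 9 were above 0 in 12.5 mg/kg replicate 1 (0.30) and control replicate 4 (0.80). Each gene's values correlated with the mean of the other markers, over 19 arrays after the slide means were taken off, at r = 0.954 for C1qc, 0.916 for C1qa, 0.886 for Timd4, 0.823 for Vsig4, 0.805 for Cd5l, 0.772 for Clec4f, 0.761 for Csf1r, 0.608 for Marco and 0.584 for C1qb (18 arrays). In the liver channel alone C1qb stood at 0.844. Without control replicate 4 the values were lower for every gene, between 0.405 for C1qb and 0.927 for C1qc. The points share their animal, array and slide, and these values are given as a description.

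Pairs of markers were also compared within a slide, on slide 2 (8 arrays) and slide 3 (6 arrays), in a family of 72 relations. On slide 2, 35 of 36 pairs had a positive Pearson r, with a median of 0.586 and a range from -0.105 to 0.886. On slide 3, 35 of 36 were positive, with a median of 0.475. C1qa and C1qc had r = 0.886 on slide 2 (exact two-sided permutation p = 0.004365, adjusted p = 0.1571, Spearman rho = 0.738 with exact p = 0.04583, adjusted p = 0.28), and 0.919 without the 2 arrays farthest from the median of C1qa. On slide 3 they had r = 0.881 (exact two-sided permutation p = 0.0125, adjusted p = 0.18, rho = 0.943 with exact p = 0.01667, adjusted p = 0.28), and 0.999 over the 4 arrays left. Other pairs did not all stay positive when the 2 arrays farthest from the median of their first gene were left out. Cd5l and C1qb went from r = 0.345 to -0.649 on slide 2, and Cd5l and Marco from 0.647 to -0.967 on slide 3. No pair passed after Benjamini-Hochberg adjustment, while 8 on slide 2 and 5 on slide 3 had an unadjusted exact p under 0.05.

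Among 13803 named genes that are not markers, the median r with the mean of the markers over the 19 slide-centred arrays was 0.020, and the 95th percentile was 0.450. The 10 genes most alike were Adgre4 (0.915), Cfp (0.913), Pirb (0.901), Adgre1 (0.898), Tyrobp (0.896), Gbp3 (0.886), Lilra6 (0.883), Siglec1 (0.883), Fcna (0.870) and Myo1f (0.866). Adgre1 encodes the F4/80 antigen, Siglec1 a sialic acid receptor of resident macrophages, Cfp the complement protein properdin, Fcna a ficolin and Tyrobp the signalling adaptor DAP12. Of these 10 genes, 7 were also among the 10 most alike without control replicate 4. The 3 with the lowest r were Adrb1 (-0.810), a beta-adrenergic receptor, Lsm11 (-0.752) and Glrx (-0.728), a glutaredoxin.

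**Figure D4:**
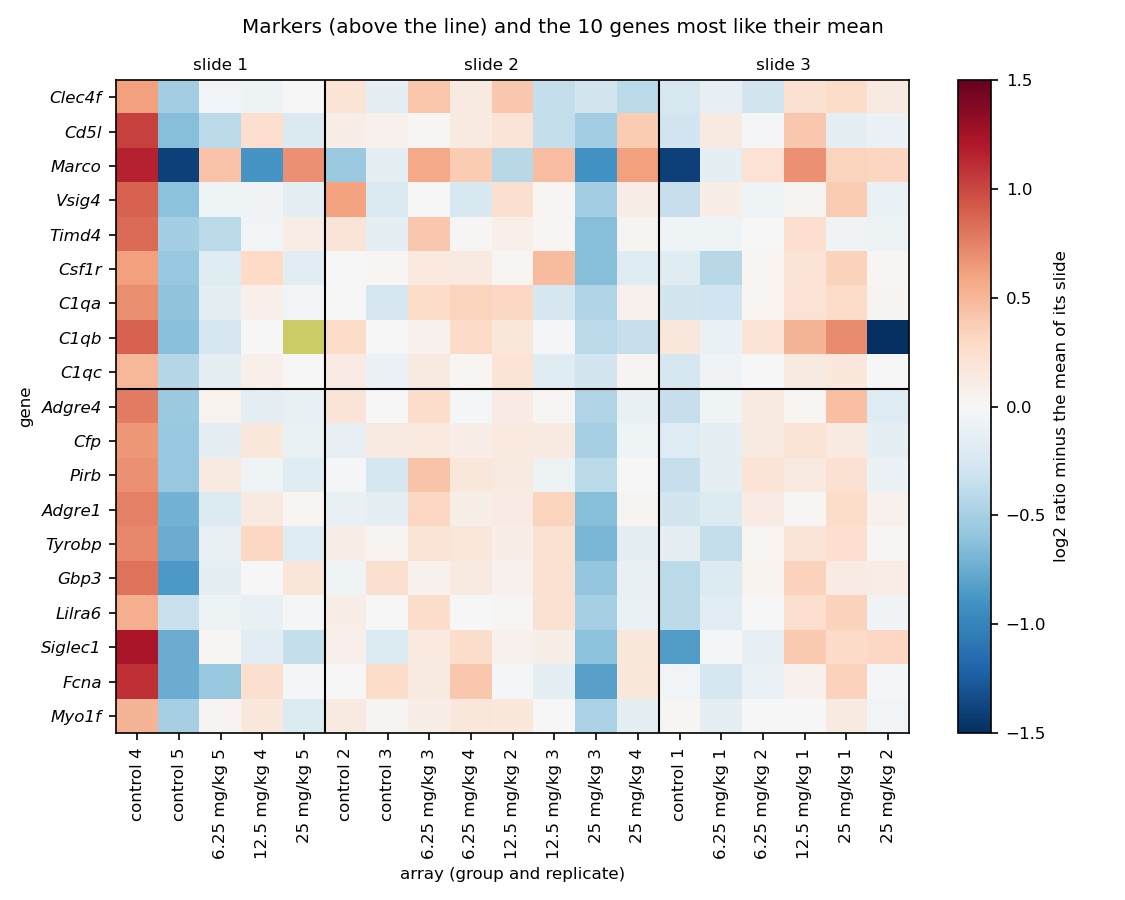
Log2 ratio minus the mean of the array's slide (colour scale, from -1.5 to 1.5; larger deviations take the end colour) for the 9 markers and, under the line, the 10 genes most like their mean; columns are the 19 arrays by slide and group, and the olive cell is a missing value. Control replicate 4 is red in all 9 markers, while control replicate 5 and 25 mg/kg replicate 3 are blue in all 9.

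The list of markers as a whole changed sign with that animal. At 25 mg/kg the median log2 change of the 9 genes (each by its brightest probe) was -0.22, with 1 of 9 above 0, and without control replicate 4 it was 0.09, with 8 of 9 above 0. At 12.5 mg/kg the median was -0.08, and 0.22 without that animal. At 6.25 mg/kg it was -0.15, and 0.15 without it. That animal was singled out for its high marker values, so leaving it out must raise these medians. The median of all 13812 genes was -0.01, -0.02 and 0.00 at 25, 12.5 and 6.25 mg/kg, and 0.00, 0.00 and 0.01 without that animal. At 25 mg/kg 48.3% of all genes were above 0, and 51.1% without that animal. With slide as a block the median of the markers was -0.11 at 25 mg/kg, 0.07 at 12.5 mg/kg and -0.04 at 6.25 mg/kg. The mean log2 ratio on an array of the 8 markers measured on all 19 arrays, which leaves out C1qb, was 3.25 to 5.00 in control livers, 3.48 to 4.08 at 6.25 mg/kg, 3.34 to 4.16 at 12.5 mg/kg and 2.83 to 4.23 at 25 mg/kg.

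Lists of related genes were read in the same fit, and at no dose did any of their 195 measured genes pass without the block. Beside the counts above 0 given for these lists at 25 mg/kg, 48.3% of all 13812 genes were above 0. Of 18 other Kupffer cell genes, 11 were above 0 at 25 mg/kg, with a median log2 change of 0.10 (0.22 without control replicate 4). Id1, a transcriptional inhibitor that contributes to Kupffer cell identity, had 0.83 (SE 0.19, adjusted p = 0.111) and passed with slide as a block (adjusted p = 0.0391, limma). Folr2, a folate receptor of resident macrophages, had -1.63 (SE 0.65, adjusted p = 0.538), and Ctsc, cathepsin C, had 0.48 (adjusted p = 0.446). Over the slide-centred arrays, r with the mean of the markers was 0.181 for Id1, 0.349 for Folr2 and 0.378 for Ctsc. These are values of whole liver, and which cells they came from was not tested.

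Of 14 genes of the CSF1 axis and of macrophage transcription factors, 10 were above 0 at 25 mg/kg (median 0.13) and 14 at 12.5 mg/kg (median 0.17). Over all genes 48.3% and 46% were above 0 at these doses. With slide as a block 9 of the 14 were above 0 at 25 mg/kg (median 0.13) and 14 at 12.5 mg/kg (median 0.19). Irf8, a transcription factor of the myeloid lineage, had a log2 change of 0.27 (SE 0.13, adjusted p = 0.672, limma) at 25 mg/kg, and Cebpb, another, had 0.42 (SE 0.23, adjusted p = 0.745). The mean log2 ratio of this list on an array was -0.32 to -0.04 in control livers, -0.13 to 0.05 at 6.25 mg/kg, 0.05 to 0.18 at 12.5 mg/kg and -0.08 to 0.16 at 25 mg/kg, and no test was made of list means.

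Of 14 genes of monocytes and recruited macrophages, 3 were above 0 at 25 mg/kg, with a median of -0.24 (-0.17 with the block). Ly6c1 had 0.74 (SE 0.15, adjusted p = 0.0828) and passed with the block (0.72, adjusted p = 0.0248, limma); it is also made by endothelial cells. Cx3cr1, the fractalkine receptor of monocytes, had 0.93 (adjusted p = 0.465) and Cd9 -0.45 (adjusted p = 0.494). The mean log2 ratio of the 13 of these genes measured on all arrays was -3.16 to -2.80 at 25 mg/kg and -3.19 to -2.55 in control livers. Of 10 neutrophil genes on the array 4 were measured, and of these 4 were above 0 at 25 mg/kg, with a median of 0.16 and none passing.

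Of 14 scavenger and efferocytosis genes, 8 were above 0 at 25 mg/kg (median 0.09), and Msr1, another class A scavenger receptor, had 0.66 (SE 0.18, adjusted p = 0.216; 0.0589 with the block, limma). Of 13 genes of complement C1 partners and receptors, 8 were above 0 (median 0.02), with C3ar1, the receptor for C3a, at -0.30. Of 15 lysosomal genes 3 were above 0 (median -0.12), among which Lyz2, lysozyme, had -0.55. Of 23 genes shared by myeloid cells 11 were above 0 (median -0.05), with Cybb, a subunit of the phagocyte oxidase, at 0.34. Of 10 macrophage activation genes 2 were above 0 (median -0.12), with Nos2, the inducible nitric oxide synthase, at -0.19 and Ccl2, a monocyte chemoattractant, at -0.20.

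Lists of neighbouring cell types were read for comparison, and none of their genes passed. At 25 mg/kg the median log2 change was 0.07 over 18 genes of sinusoidal endothelium, 0.03 over 15 of stellate cells and fibroblasts, -0.22 over 12 of hepatocytes, -0.15 over 12 of lymphocytes, -0.12 over 4 of cholangiocytes, -0.02 over 7 of dendritic cells and -0.16 over 4 of erythroid cells. The hepatocyte median of -0.22 was the same as that of the markers. Without control replicate 4 it was -0.01, against 0.09 for the markers. With slide as a block and every array kept it was -0.05, against -0.11 for the markers. With the block and without control replicate 4 it was -0.03, against 0.08 for the markers. The mean log2 ratio of 11 hepatocyte genes in that animal was 8.38, within the 8.29 to 8.4 of the other arrays of slide 1. The part of slide in the hepatocyte median, and of these lists in the values of the markers, was not tested.

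**Figure D5:**
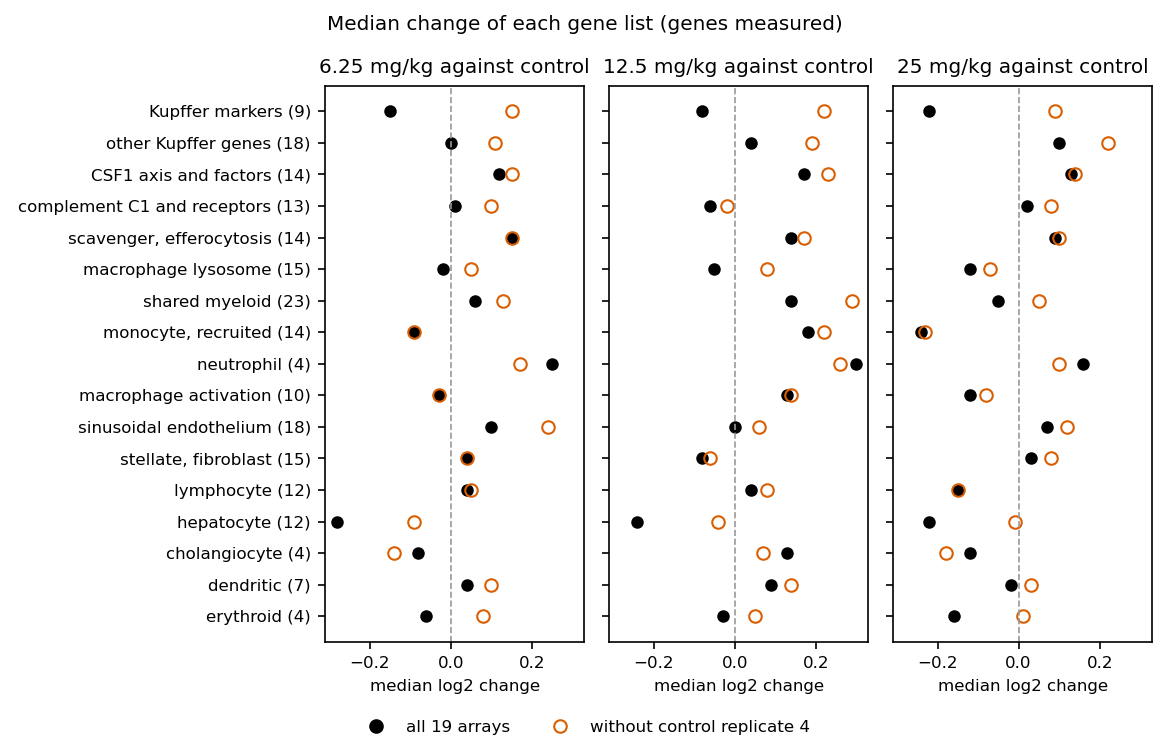
Median log2 change of each gene list at 6.25, 12.5 and 25 mg/kg against control (x axis, log2 units), over all 19 arrays (filled) and without control replicate 4 (open); the number of genes measured is in brackets. The marker median at 25 mg/kg lies at -0.22 with all arrays and at 0.09 without that animal.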

How the data were processed

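Per the file headers, the deposited scanner files came from Feature Extraction 10.7.3.1, with a linear median intensity per spot and colour, its local background, and a processed intensity already corrected for background and dye. The authors also deposited a table of log2 ratios, whose normalisation is not given in the sources used here. Its 19 columns had medians of -0.035 to -0.018 and correlated at 0.993 to 0.996 with loess ratios computed here without background subtraction, with a slope of 0.99, so its scale is log2 and its direction liver over reference. How its columns were centred stays unknown.

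Median signals were corrected with normexp (offset 50) and normalised by loess within each array in limma 3.58.1 (R 4.3.3). Signals of a single channel were recovered after a further quantile normalisation, between arrays, of the mean log2 intensity of both channels. They are therefore normalised values that depend on both channels. Outlier spots were set to missing, and spots of a probe averaged. A probe was kept where over 0.5 of its spots were well above background in liver on at least 4 arrays and at most 2 values were missing (29415 of 55681). RefSeq accessions (GRCm38.p6 table) named 47.4% of probes, and the brightest kept probe stood for each gene (13812 genes). No marker spot was saturated.

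Group means over all 19 arrays were fitted with lmFit and eBayes, two-sided, with Benjamini-Hochberg adjustment over all kept probes and a threshold of 0.05. Scripts were tested on simulated data. Exact permutation tests of pairs used NumPy 2.4.6. Alternatives were slide as a block, other signals and filters, array weights and leaving out each array. Precision is limited by the number of arrays, and the spread is that between animals. The members and the 16 other lists (233 genes, 195 measured) were chosen with earlier results of these data known. From each list the 3 genes of smallest p at 25 mg/kg could be named, and for likeness the 10 highest and 3 lowest correlations. One gene that this rule names is not reported here.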

Additional observations from a re-analysis of the deposited data

Results flagged for a closer look

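Within groups of 4 or 5 arrays, a value was singled out where its gap to the nearest array took a larger share of the group's range than Dixon's 95% limit. Of 44 groups (11 probes at 4 doses), 7 held such a value, and at this limit about 5% of independent groups hold one by chance alone. The 44 groups are not independent, because the 11 probes were read on the same arrays, and each group mixes slides. That rate therefore cannot judge whether 7 is more than chance gives.

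Control replicate 4 accounted for 4 of the 7: Cd5l at 7.99 with the next control at 6.33, Timd4 at 2.52 with the next at 1.21, Csf1r probe 1 at 1.04 with the next at 0.13, and C1qb at 4.72 with the next at 3.41. In the other groups, Clec4f stood at 6.94 in 6.25 mg/kg replicate 5, on slide 1, with the next at 5.96. Marco stood at 1.02 in 25 mg/kg replicate 3, below the next at 2.55, on an array where all 9 markers were under the mean of their slide. Csf1r probe 1 stood at -0.26 in 6.25 mg/kg replicate 1, with the next at 0.19.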

How the results depend on the processing

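No marker passed under any of 29 alternatives, and over 954 recomputed changes the sign was opposite in 87, of which 44 came from leaving out 1 array. The adjusted p of Marco ranged from 0.192 to 0.996 at 25 mg/kg (log2 change 0.50 to 1.14) and that of C1qb from 0.405 to 0.968 (-1.16 to -0.35), without a change of sign. No paired analysis was possible because the labels give no replicate numbers shared between groups, and those used here follow accession order. Probes that passed at 25 mg/kg numbered 240 with slide as a block, 134 with array weights, 55 in the liver channel alone, 48 from the 2 groups alone, 10 with no filter on dim probes, and 47 with the block and without control replicate 4, a setting added after seeing the data. At 12.5 mg/kg they numbered 2 with the block, 6 from the 2 groups alone and 3 with probes above background on all arrays. For any dose they numbered 22 with the block, 11 with array weights, 7 in the liver channel alone, 9 with scanner-processed signals, 10 with the block and without control replicate 4, and 0 with no background subtraction, the deposited table, no filter or the strict filter. For the trend they numbered 71 with the block, 92 with array weights, 11 in the liver channel alone, 2 with scanner-processed signals and 2 with no filter. Leaving out 1 array in turn gave 0 probes (without 25 mg/kg replicate 1) to 67 (without 6.25 mg/kg replicate 5) at 25 mg/kg, 0 to 5 at 12.5 mg/kg, 0 to 0 at 6.25 mg/kg, 0 to 12 for any dose and 0 to 83 for the trend; the causes of these shifts were not tested.

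Changes whose sign was opposite to the reported one, none of which passed, are the following. With array weights they were C1qa 0.15 at 25 mg/kg. With the deposited table they were C1qa 0.08 at 25 mg/kg. In the liver channel alone they were Vsig4 0.02, C1qc 0.08 at 12.5 mg/kg, and Csf1r probe 3 0.06 at 6.25 mg/kg. With no background subtraction they were C1qa 0.06 at 25 mg/kg. With scanner-processed signals they were Vsig4 0.42, C1qa 0.34 at 25 mg/kg, and Clec4f 0.03 at 12.5 mg/kg, and Clec4f 0.01, Timd4 0.34, C1qb 0.03 at 6.25 mg/kg. With slide as a block they were C1qa 0.07, C1qc 0.01 at 25 mg/kg, and Clec4f 0.06, Cd5l 0.07, Vsig4 0.00, Timd4 0.01, C1qc 0.09 at 12.5 mg/kg, and Clec4f 0.04, Csf1r probe 3 0.00, C1qc 0.03 at 6.25 mg/kg. With the block and without control replicate 4 they were Clec4f 0.11, Cd5l 0.06, Vsig4 0.08, Csf1r probe 3 0.13, Csf1r probe 1 0.04, C1qa 0.26, C1qc 0.14 at 25 mg/kg, and Clec4f 0.22, Cd5l 0.31, Vsig4 0.21, Timd4 0.21, C1qb 0.21, C1qc 0.22 at 12.5 mg/kg, and Clec4f 0.19, Cd5l 0.15, Vsig4 0.08, Timd4 0.11, Csf1r probe 3 0.17, Csf1r probe 1 0.11, C1qb 0.07, C1qc 0.15 at 6.25 mg/kg. Leaving out 1 array at a time, the log2 change at 25 mg/kg ran Clec4f -0.50 to 0.11, Cd5l -0.51 to 0.06, Vsig4 -0.38 to 0.09, Timd4 -0.44 to 0.02, Csf1r probe 3 -0.39 to 0.08, Csf1r probe 1 -0.26 to 0.05, C1qa -0.18 to 0.30, C1qc -0.23 to 0.15. Leaving out 1 array at a time, the log2 change at 12.5 mg/kg ran Clec4f -0.41 to 0.22, Cd5l -0.39 to 0.31, Vsig4 -0.25 to 0.21, Timd4 -0.22 to 0.21, Csf1r probe 3 -0.14 to 0.33, C1qa -0.13 to 0.37, C1qb -0.19 to 0.21, C1qc -0.22 to 0.22. Leaving out 1 array at a time, the log2 change at 6.25 mg/kg ran Clec4f -0.39 to 0.19, Cd5l -0.38 to 0.15, Vsig4 -0.38 to 0.09, Timd4 -0.29 to 0.13, Csf1r probe 3 -0.35 to 0.11, Csf1r probe 1 -0.18 to 0.11, C1qa -0.12 to 0.36, C1qb -0.34 to 0.06, C1qc -0.20 to 0.17. Timd4 could not be recomputed among probes above background on all arrays, and its ratios rest on a reference signal near background.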
